A study of Mus musculus with 6 samples.

Results

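Small leucine-rich proteoglycan (SLRP) transcripts were measured by bulk RNA-seq in injured mouse left ventricles. The set was defined by gene symbol as 9 genes, namely *Dcn* (decorin), *Lum* (lumican), *Bgn* (biglycan), *Fmod* (fibromodulin), *Ogn* (osteoglycin), *Aspn* (asporin), *Prelp* (proline and arginine rich end leucine rich repeat protein), *Omd* (osteomodulin) and *Podn* (podocan). All 9 were found among the 17556 genes listed, and all 9 were among the 13817 genes with enough reads to be tested. Ventricles were taken at 4 days post injury (dpi) from 3 Cre-positive and 3 Cre-negative siblings, aged 6 to 10 weeks, after permanent ligation of the left anterior descending artery had produced a myocardial infarction (MI). Every mouse carried floxed *Yap* on both alleles and floxed *Wwtr1* on one allele, and every mouse received a tamoxifen citrate diet from the surgery on. Cre-positive mice also carried MerCreMer, a Cre recombinase switched on by tamoxifen, under the endogenous periostin promoter, whereas Cre-negative mice had wildtype Periostin. The parental lines came from the Jackson Laboratory.

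The comparison asks whether deleting both alleles of *Yap* and one of *Wwtr1* (also called *Taz*), which encode transcriptional regulators, in myofibroblasts, the periostin expressing cells that build the scar, goes with a different level of SLRP transcripts in the ventricle. The recombinase is active only in periostin expressing cells while RNA came from the whole ventricle. Fewer cells of a type and less RNA per cell therefore cannot be told apart. No group carried MerCreMer without floxed alleles. Deletion, Cre and the changed periostin allele thus cannot be told apart either. Because the labels do not say whether the mice came from separate litters, the p-values measure the spread between these 6 ventricles.

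SLRPs are secreted proteins with a core of leucine rich repeats that fold into a curved solenoid and dock onto collagen fibrils. They limit fibril diameter and spacing, and several also hold growth factors of the TGF-β family in the matrix or signal through innate immune receptors when released. Class I members (decorin, biglycan and asporin) and class II members (lumican, fibromodulin, PRELP and osteomodulin) bind collagen, osteoglycin belongs to class III, and podocan to the non-canonical class V. In the heart they are made mainly by fibroblasts and are deposited in the scar that replaces dead muscle after MI.

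Most of these genes sit in clusters of related genes (RefSeq positions on GRCm38.p6). On chromosome 13 *Aspn* (chr13:49544443-49567565), *Omd* (chr13:49582462-49592612) and *Ogn* (chr13:49608015-49624501) lie head to tail on the plus strand, with 14.9 kb between *Aspn* and *Omd* and 15.4 kb between *Omd* and *Ogn*. *Dcn* (chr10:97479500-97518163) and *Lum* (chr10:97565501-97572703) are separated by 47.3 kb on chromosome 10. *Prelp* (chr1:133910304-133930102, minus strand) and *Fmod* (chr1:134037254-134048280, plus strand) are 107.2 kb apart on chromosome 1. *Podn* (chr4:108014793-108031954, minus strand) and *Bgn* (chrX:73483601-73495936, plus strand) stand alone. The canonical transcripts have 3 exons in the class II genes *Lum*, *Fmod*, *Prelp* and *Omd* and 8 exons in the class I genes *Dcn*, *Bgn* and *Aspn* (GENCODE M39). The coding sequences run from 298 codons in *Ogn* to 611 codons in *Podn*.

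RefSeq promoter windows (GRCm38.p6, 250 bases before to 50 bases after the start site) were matched for 7 of the 9 genes, those other than *Dcn* and *Lum*. The 250 upstream bases are given for the chromosome 13 neighbours, whose transcript levels differ widely, for *Fmod*, whose level varied most, and for *Bgn*, the most abundant, at chr13:49544193-49544442, chr13:49582212-49582461, chr13:49607765-49608014, chr1:134037004-134037253 and chrX:73483351-73483600, all on the plus strand and written 5′ to 3′. Capitals mark matches to GGAATG (the core recognised by TEAD factors, the DNA binding partners of *Yap* and *Wwtr1*) or TGANTCA (an AP-1 site), each searched on both strands, and to TATAAA on the forward strand.
Aspn: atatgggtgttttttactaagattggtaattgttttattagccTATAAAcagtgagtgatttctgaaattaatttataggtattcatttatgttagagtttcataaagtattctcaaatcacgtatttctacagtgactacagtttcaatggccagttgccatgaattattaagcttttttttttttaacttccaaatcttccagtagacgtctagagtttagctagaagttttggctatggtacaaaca
Omd: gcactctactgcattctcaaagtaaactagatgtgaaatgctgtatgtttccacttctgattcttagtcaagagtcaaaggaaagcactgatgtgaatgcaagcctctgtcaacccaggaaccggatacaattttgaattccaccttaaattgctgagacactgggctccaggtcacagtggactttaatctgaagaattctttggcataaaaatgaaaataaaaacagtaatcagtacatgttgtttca
Ogn: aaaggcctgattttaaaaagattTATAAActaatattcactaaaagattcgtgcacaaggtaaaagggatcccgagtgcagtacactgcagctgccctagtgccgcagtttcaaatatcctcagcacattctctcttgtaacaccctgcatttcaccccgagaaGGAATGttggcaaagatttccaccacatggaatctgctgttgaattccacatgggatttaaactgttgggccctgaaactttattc
Fmod: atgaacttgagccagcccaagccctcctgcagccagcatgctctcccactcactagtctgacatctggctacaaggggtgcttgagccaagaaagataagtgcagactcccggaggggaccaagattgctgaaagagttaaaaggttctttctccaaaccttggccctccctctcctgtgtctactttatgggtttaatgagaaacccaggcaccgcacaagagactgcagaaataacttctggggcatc
Bgn: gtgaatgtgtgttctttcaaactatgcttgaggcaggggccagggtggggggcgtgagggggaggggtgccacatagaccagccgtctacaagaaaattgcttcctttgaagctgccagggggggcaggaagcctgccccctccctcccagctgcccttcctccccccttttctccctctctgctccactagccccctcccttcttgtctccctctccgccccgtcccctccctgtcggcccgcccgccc

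Of the windows searched, GGAATG was found only in that of *Ogn*, 86 bases before the start site, against 14.7% of all 32851 promoter windows. TATAAA was found 207 bases before the start of *Aspn* and 227 bases before that of *Ogn*, and 8.32% of all windows hold it. No window held TGANTCA, which 7.81% of all windows do. A match is a description of these letters and not evidence of binding. The windows spanned a wide range of base composition. The 3 on chromosome 13 were AT rich, with a GC content of 31.0% in *Aspn*, 37.7% in *Omd* and 42.3% in *Ogn*, whereas *Bgn* had 63.7% and the 2 windows of *Podn* had 63.0% and 77.0%, around a median of 52.7% for all windows.

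Libraries held 13177888 to 14827579 estimated counts. Cre-negative replicate 1 stood apart from the other libraries, with a chi-square per gene of 44.2 to 68.3 in every pair that included it and of 8.07 to 17.0 in every other pair. Relative to the other 5 ventricles it had the highest summed TPM of cardiomyocyte markers (66128 against 49752 to 56258). Its sum was lowest for activated fibroblast markers (1025 against 1776 to 2301) and highest for neutrophil markers (468 against 53.2 to 170). Single markers departed from these sums. *Myl2* and *Myl3* were highest in Cre-negative replicate 3 (12257 and 6122 TPM, against 10382 and 6103 in replicate 1). *Csf3r* was lowest in Cre-negative replicate 1 (12.3 TPM, against 17.4 to 25.95 elsewhere). *S100a9* and *S100a8* made most of the neutrophil sum there (203 and 152 TPM). Fold changes of the SLRP genes are therefore given with and without Cre-negative replicate 1. Ventricular markers were high in every library (*Myl2* 8655 to 12257 TPM), but *Hand1* was at or near 0, and atrial genes varied, with *Myl4* at 31.9 to 1268 TPM. Y-linked counts were 12 and 16 in the replicate 2 ventricles of the Cre-positive and Cre-negative group and 1592 to 2034 in the others. *Yap1* was at 44.2, 46.3 and 44.4 TPM in Cre-negative and 50.7, 49.0 and 48.9 TPM in Cre-positive ventricles (log2 fold change 0.028, edgeR adjusted p = 0.935), and *Wwtr1* had a log2 fold change of 0.046 (adjusted p = 0.876). *Postn* was at 452, 1015 and 1112 TPM in Cre-negative and 526, 636 and 586 TPM in Cre-positive ventricles, with a log2 fold change of -0.66 ± 0.27 (SE) that did not pass (adjusted p = 0.714). Without Cre-negative replicate 1 it was -0.94 ± 0.082 (SE) and passed (edgeR adjusted p = 0.0182). These whole-ventricle levels do not measure deletion within myofibroblasts, and for *Postn* the groups also differ in the periostin allele itself.

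To place the SLRPs against each other, levels were compared per length as deposited TPM, a unit scaled to transcript length and library size. *Bgn* and *Dcn* made up most SLRP transcripts following MI. *Bgn* averaged 2352 ± 430 TPM (SD, n = 6) and ranked 44 of 17556 genes, and *Dcn* averaged 791 ± 89.9 TPM and ranked 209. Next came *Lum* at 199 ± 35.2 TPM, *Ogn* at 152 ± 28.2 TPM and *Aspn* at 124 ± 26.6 TPM. *Prelp* at 72.2 ± 6.02 TPM, *Podn* at 27.1 ± 8.12 TPM and *Fmod* at 25.3 ± 10.4 TPM were less abundant. *Omd*, best known from bone, was the least abundant at 2.06 ± 0.497 TPM, with 15.7 to 36.7 estimated counts per library.

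The order was nearly the same in each ventricle. From *Bgn* down to *Prelp* and for *Omd* it held in 6 of 6 ventricles, whereas *Podn* exceeded *Fmod* in 3 and *Fmod* exceeded *Podn* in the other 3. The ranges of *Lum* and *Ogn* overlapped, as did those of *Ogn* and *Aspn*, although within a ventricle *Lum* was 1.11 to 1.61 times *Ogn* and *Ogn* was 1.11 to 1.43 times *Aspn*. *Podn* and *Fmod* did not differ beyond their spread, since *Podn* was 6.01 times *Fmod* in Cre-negative replicate 1 and 0.491 to 1.31 times *Fmod* in the other 5 ventricles, where *Fmod* had the higher mean (29.1 TPM, against 25.4). The chromosome 13 neighbours covered the widest span, with *Ogn* at 56.8 to 97.9 times the TPM of *Omd*. All other neighbours in the order were separated without overlap, the closest being *Aspn* and *Prelp* at 78.2 and 77.9 TPM in Cre-negative replicate 1.

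**Figure D1:**
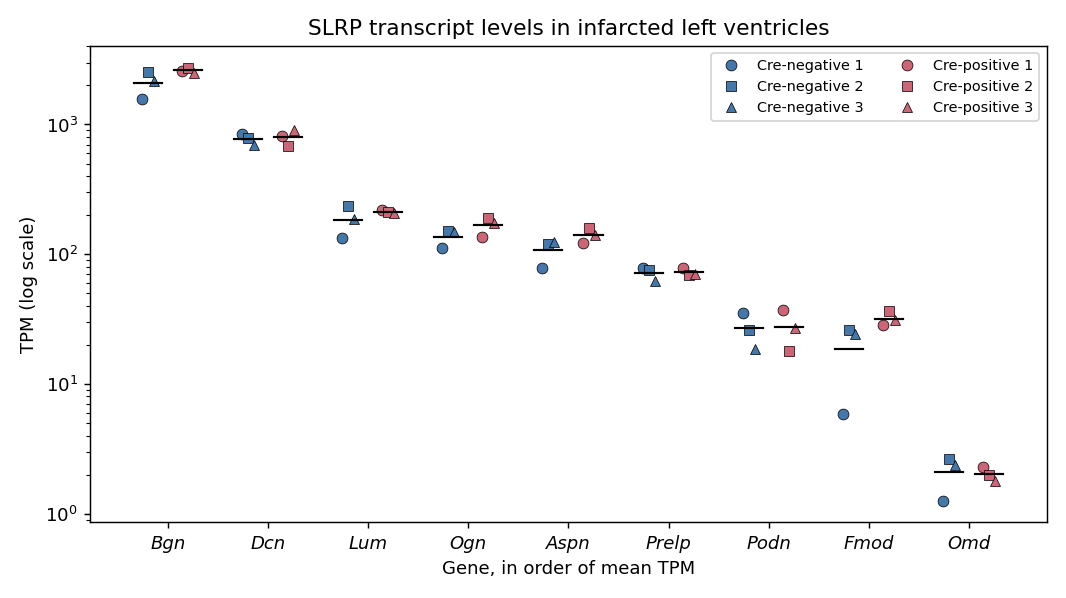
TPM on a log scale of the 9 SLRP genes in each ventricle, with blue symbols for Cre-negative, red symbols for Cre-positive, the shape giving the replicate and black bars the group means (n = 3). Bgn and Dcn lie at the top and Omd at the bottom in each ventricle, and the Fmod value of Cre-negative replicate 1 (5.91 TPM) lies apart from the other 5 (24.4 to 36.3 TPM).

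Summed over the 9 genes, SLRP transcripts took 0.286% to 0.412% of all TPM. The sum was 2855, 3972 and 3442 TPM in Cre-negative replicates 1, 2 and 3 and 4022, 4116 and 4057 TPM in Cre-positive replicates 1, 2 and 3. The Cre-positive values thus lay above the Cre-negative values and were closer together, with means of 4065 ± 47.7 TPM and 3423 ± 559 TPM (SD, n = 3 each). The ratio of the means was 1.19, and 1.10 without Cre-negative replicate 1, when the Cre-negative mean was 3707 TPM. On deposited FPKM the groups overlapped, with the highest Cre-negative sum (2212.24) just above the highest Cre-positive sum (2211.07), and they also overlapped on normalized counts. *Bgn* gave 54.6% of the sum in Cre-negative replicate 1 and 61.4% to 66.7% in the other ventricles. *Dcn* gave 29.8% in that ventricle and 16.6% to 22.5% in the others, so that the ratio of *Bgn* to *Dcn* was 1.83 there and 2.73 to 4.02 elsewhere.

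To test whether genotype changed any SLRP transcript, estimated counts were compared with edgeR's quasi-likelihood test and Benjamini-Hochberg adjustment over all 13817 genes. No SLRP gene passed. Of the 9 genes, 0 had an adjusted p under 0.05, against 1 gene (0.00724%) of all tested, and 0 had an unadjusted p under 0.05, against 5.83% of all tested. DESeq2 also called 0 of the 9. The 1 gene called was *Gbp2b*, a guanylate binding protein named here after its value was seen (adjusted p = 0.00991). The median log2 fold change of Cre-positive over Cre-negative was 0.10 for the 9 genes, 5 of which were above 0, and 0.0062 for all genes tested. Without Cre-negative replicate 1 the medians were 0.071 and 9.67e-05. In 1 of the 9 genes, *Fmod*, all 3 Cre-positive ventricles lay above all 3 Cre-negative ventricles, a pattern seen in 7.55% of all genes tested, and in 0 genes did all lie below, against 6.85%.

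*Fmod*, which binds collagen and the crosslinking enzyme lysyl oxidase during fibril assembly, had the largest fold change of the 9 with all 6 ventricles; without Cre-negative replicate 1 that of *Omd* was larger in size (-0.43, against 0.27). Its TPM was 5.91, 25.9 and 24.4 in Cre-negative and 28.3, 36.3 and 30.9 in Cre-positive ventricles. The groups did not overlap, and Cre-negative replicate 1 was far below the rest. The Cre-negative mean was 18.7 TPM with it and 25.1 TPM without it, against a Cre-positive mean of 31.8 TPM. In normalized counts, which correct for library size and composition, the means were 416 ± 235 (SD) and 665 ± 60.9 (n = 3 each). The log2 fold change was 0.67 ± 0.42 (SE), with a 95% interval of -0.30 to 1.64, an edgeR adjusted p of 0.714 and a two-sided exact permutation p of 0.1, the smallest that 3 against 3 can give. Without Cre-negative replicate 1 the log2 fold change was 0.27 ± 0.094 (SE), with an interval of 0.052 to 0.49, an unadjusted edgeR p of 0.021 and an adjusted p of 0.729. That fit gave 922 genes (6.59%) an unadjusted p under 0.05.

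Among the other class II genes, *Lum*, which shares with fibromodulin the ability to carry keratan sulfate and to limit fibril width, was at 134, 234 and 187 TPM in Cre-negative and 218, 212 and 208 TPM in Cre-positive ventricles. The Cre-positive values fell inside the Cre-negative range. The log2 fold change was 0.10 ± 0.16 (SE) with an interval of -0.27 to 0.47, and it was -0.053 without Cre-negative replicate 1. *Prelp*, whose protein anchors basement membranes through a heparin binding end, had the narrowest fold range of TPM of the 9. It was at 77.9, 75.4 and 62.4 TPM in Cre-negative and 77.7, 68.8 and 70.8 TPM in Cre-positive ventricles, a 1.25-fold range, and its log2 fold change was -0.11 ± 0.14 (SE). The interval of -0.44 to 0.21 spans a fold of 0.740 to 1.16, and the value was 0.0054 without Cre-negative replicate 1. *Omd* was at 1.26, 2.65 and 2.39 TPM in Cre-negative and 2.29, 1.97 and 1.78 TPM in Cre-positive ventricles. Its counting error alone amounted to a coefficient of variation of 18.9%, so its log2 fold change of -0.20 ± 0.33 (SE, interval -0.96 to 0.57) rests on few reads. It was -0.43 without Cre-negative replicate 1, -0.030 without Cre-negative replicate 2 and -0.093 without Cre-negative replicate 3.

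The class I genes were abundant enough for counting error to be small (a coefficient of variation of 0.480% for *Bgn* and 0.949% for *Dcn*). *Bgn*, a proteoglycan that also signals through Toll-like receptors when freed from the matrix, was at 1559, 2546 and 2183 TPM in Cre-negative and 2588, 2747 and 2490.45 TPM in Cre-positive ventricles. Again Cre-negative replicate 1 was lowest and the groups overlapped. Its log2 fold change was 0.21 ± 0.16 (SE, interval -0.17 to 0.59) and 0.071 without that ventricle. *Aspn*, which lacks glycosaminoglycan chains and can block TGF-β binding, was at 78.2, 120.02 and 124 TPM in Cre-negative and 122, 158 and 140.41 TPM in Cre-positive ventricles. The log2 fold change was 0.27 ± 0.15 (SE, interval -0.072 to 0.62), and 0.12 without Cre-negative replicate 1. *Dcn*, the prototype SLRP and a trap for TGF-β, was at 851, 791 and 692 TPM in Cre-negative and 814, 683 and 913 TPM in Cre-positive ventricles. Here Cre-negative replicate 1 was not low, and the log2 fold change was -0.073 ± 0.17 (SE, interval -0.46 to 0.31), or 0.049 without it.

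*Ogn*, the class III gene, also called mimecan, was at 112, 150.49 and 148 TPM in Cre-negative and 135, 191 and 174 TPM in Cre-positive ventricles. Replicates 2 and 3 of the Cre-positive group were higher than each Cre-negative ventricle, and replicate 1 was not. The log2 fold change was 0.17 ± 0.13 (SE, interval -0.13 to 0.48), or 0.085 without Cre-negative replicate 1. *Podn*, the class V gene, which restrains smooth muscle growth, spread widely within both groups. It was at 35.5, 26.2 and 18.7 TPM in Cre-negative and 37.2, 17.8 and 27.1 TPM in Cre-positive ventricles, with a log2 fold change of -0.067 ± 0.34 (SE, interval -0.85 to 0.72) that became 0.25 without Cre-negative replicate 1. For these 8 genes edgeR's adjusted p lay between 0.714 and 0.961, and the two-sided exact permutation p between 0.2 and 0.7. The intervals allow differences of up to 1.16-fold for *Prelp* and 1.65-fold for *Podn* in the upward direction. Downward they reach 0.951-fold for *Aspn* and 0.514-fold for *Omd*. A failure to pass therefore does not show equal levels.

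**Figure D2:**
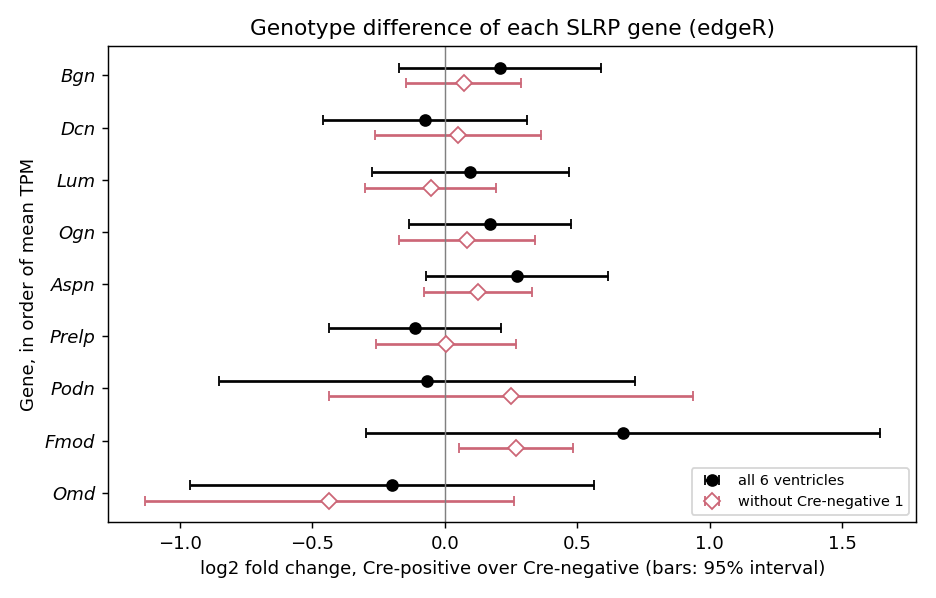
Log2 fold change of each SLRP gene, Cre-positive over Cre-negative, from edgeR with 95% intervals, for all 6 ventricles (filled circles) and without Cre-negative replicate 1 (open diamonds). With all ventricles each interval includes 0, and without that replicate only the interval of Fmod (0.052 to 0.49) does not.

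The 9 genes did not vary alike from ventricle to ventricle. On normalized counts, 6 of the 9 genes were lowest in Cre-negative replicate 1 (66.7%, against 32.1% of all genes tested) and the other 3 were highest there (33.3%, against 30.8%). Relative to the mean of the other 5 ventricles, its normalized count was 0.233-fold for *Fmod*, 0.634-fold for *Omd*, 0.677-fold for *Aspn*, 0.713-fold for *Bgn*, 0.727-fold for *Lum* and 0.803-fold for *Ogn*. In the same ventricle *Dcn* was 1.25-fold, *Prelp* 1.26-fold and *Podn* 1.57-fold. The coefficient of variation of normalized counts was higher among the Cre-negative than among the Cre-positive ventricles for 6 genes, at 56.6% and 9.15% for *Fmod*, 32.0% and 14.2% for *Omd*, 22.3% and 5.81% for *Lum*, 18.9% and 4.47% for *Bgn*, 18.3% and 9.07% for *Aspn* and 16.4% and 10.3% for *Prelp*. It was 15.9% and 16.0% for *Dcn*, 10.2% and 13.7% for *Ogn* and 37.5% and 39.2% for *Podn*. Without Cre-negative replicate 1 the Cre-negative value, then from 2 ventricles, was 16.2% for *Lum*, 11.2% for *Bgn* and 13.5% for *Prelp*, still above the Cre-positive value, whereas *Fmod* at 4.47%, *Omd* at 4.64%, *Aspn* at 2.12%, *Dcn* at 9.95%, *Ogn* at 1.36% and *Podn* at 25.0% were below it. The counting error of *Podn* was 4.08%, well below its spread in either group.

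**Figure D3:**
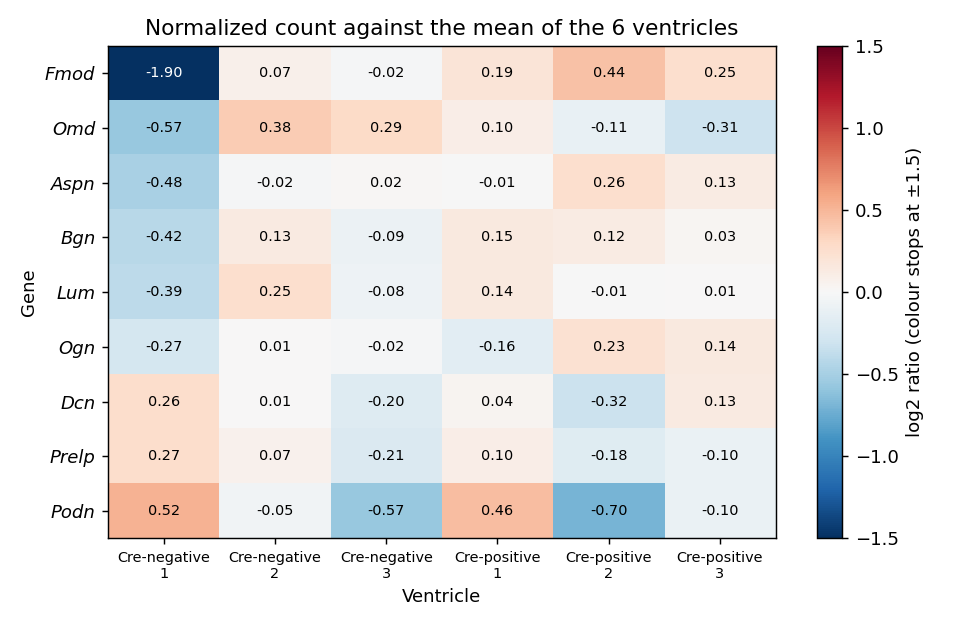
Log2 ratio of the normalized count to the mean of the 6 ventricles for each SLRP gene (rows, ordered by the value in Cre-negative replicate 1) and ventricle (columns), blue below and red above the mean. Fmod in Cre-negative replicate 1 (-1.90) is the lowest value, and Dcn, Prelp and Podn are above the mean in that ventricle while the other 6 genes are below it.

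Pairs of SLRP genes were compared across the 6 ventricles on log2 CPM (counts scaled to library size). Of 36 pairs, 0 passed after Benjamini-Hochberg adjustment of two-sided exact permutation p-values for r (smallest adjusted p = 0.0833). In 18 pairs r was above 0, and 9 pairs had an unadjusted exact permutation p under 0.05. Those 9 include 2 negative pairs, *Aspn* with *Prelp* (r = -0.843, exact permutation p = 0.0222) and *Ogn* with *Podn* (r = -0.819, p = 0.0403). Without Cre-negative replicate 1 their r was -0.631 and -0.713. *Prelp* and *Podn* had r = 0.926 (exact permutation p = 0.00556) and rho = 0.943 (p = 0.0167), and r was 0.882 without the 2 ventricles farthest from the median of *Prelp* and 0.906 without Cre-negative replicate 1. *Ogn* and *Aspn*, which are neighbours but for *Omd*, had r = 0.893 (exact permutation p = 0.00556) and rho = 0.829 (p = 0.0583), and r was 0.788 without the 2 farthest ventricles and 0.894 without Cre-negative replicate 1. *Lum* and *Bgn* had r = 0.932 (exact permutation p = 0.00694) and rho = 0.886 (p = 0.0333), with 0.805 without the 2 farthest and 0.741 without Cre-negative replicate 1. *Fmod* and *Aspn* had the highest r, at 0.960 (exact permutation p = 0.00972, rho = 0.829 with p = 0.0583), with 0.861 without Cre-negative replicate 1 and 0.557 without the 2 farthest ventricles, so that it rests in part on those 2. *Omd* had r = 0.180 to its neighbour *Ogn* (exact permutation p = 0.714, rho = 0.143 with p = 0.803, and r = -0.527 without the 2 farthest and -0.598 without Cre-negative replicate 1). To its other neighbour, *Aspn*, it had r = 0.435 (exact permutation p = 0.411, rho = -0.0286 with p = 1.0, and r = -0.904 without the 2 farthest and -0.730 without Cre-negative replicate 1).

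Among 9990 other genes with a mean of at least 10 CPM, those whose log2 levels over the 6 ventricles were most like each SLRP gene were listed by Pearson's r, as a description. For *Dcn* they were the matrix glycoprotein gene *Fbln1* (r = 0.995) and *Enpp2*, which encodes autotaxin (0.994), and the closest SLRP was *Podn* (0.870). For *Fmod* they were the collagen prolyl hydroxylase subunit gene *P4ha3* (0.999) and the collagen gene *Col15a1* (0.998), with *Aspn* as the closest SLRP. *Prelp* was closest to *Slpi* (0.996), a protease inhibitor gene, and *Saa3* (0.996), an acute phase gene. *Podn* was closest to *Tmem176b* (0.995) and the chemokine gene *Ccl6* (0.989), and *Prelp* and *Podn* were each other's closest SLRP. The remaining genes were closest to *Spg21* (0.991) and *Psmb9* (0.983) for *Lum*, *Wdr70* (0.996) and *Spout1* (0.994) for *Bgn*, *Vps4b* (0.998) and *Acer3* (0.994) for *Ogn*, *Hjurp* (0.998) and *Ep400* (0.996) for *Aspn*, and *Pitpnb* (0.991) and *Tmem120b* (0.989) for *Omd*. All points share the same 6 libraries, and between 78 (*Omd*) and 899 (*Fmod*) genes had r above 0.9.

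Marker lists of other cell types also varied between ventricles. *Podn* was highest in Cre-positive replicate 1 and Cre-negative replicate 1, where the summed TPM of 5 epicardial and mesothelial markers (*Wt1*, *Upk3b*, *Msln*, *Krt19* and *Upk1b*) was also highest, at 161 and 121 against 30.1 to 98.2 elsewhere. The lowest mesothelial sum was in Cre-negative replicate 3, which had the lowest *Prelp*, and *Podn* was lowest in Cre-positive replicate 2 (81.0). The atrial gene *Myl4* was at 626, 509 and 78.5 TPM in Cre-negative and 1268, 31.9 and 183 TPM in Cre-positive ventricles, again highest in replicate 1 of each group and lowest in Cre-positive replicate 2, although the sum of the 5 atrial markers, most of it *Nppa*, was 8213, 9848 and 8506 TPM and 16615, 6898 and 7102 TPM. Neutrophil markers, 8 in all, summed to 468, 91.6 and 53.2 TPM in Cre-negative and 170, 72.9 and 146 TPM in Cre-positive ventricles, with *Ly6g* at 0 in 4 of 6 ventricles. Cre-negative replicate 1 had the lowest sum for the 8 activated fibroblast markers, as it had for *Fmod*, *Aspn*, *Bgn*, *Lum*, *Ogn* and *Omd*, and the highest for the 10 cardiomyocyte markers (66128 TPM against 55414 to 56258 in the other Cre-negative and 49752 to 54031 in the Cre-positive ventricles). The 9 fibroblast markers, 2 of which are collagen genes, summed to 3747, 5680 and 5123 TPM in Cre-negative and 6392, 5459 and 6421 TPM in Cre-positive ventricles. *Col1a1* and *Col1a2* made most of these sums, and the 7 other fibroblast markers summed to 1386, 1525 and 1367 TPM in Cre-negative and 1357, 1159 and 1566 TPM in Cre-positive ventricles, which overlap. The part of these cell types in the SLRP levels was not tested.

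**Figure D4:**
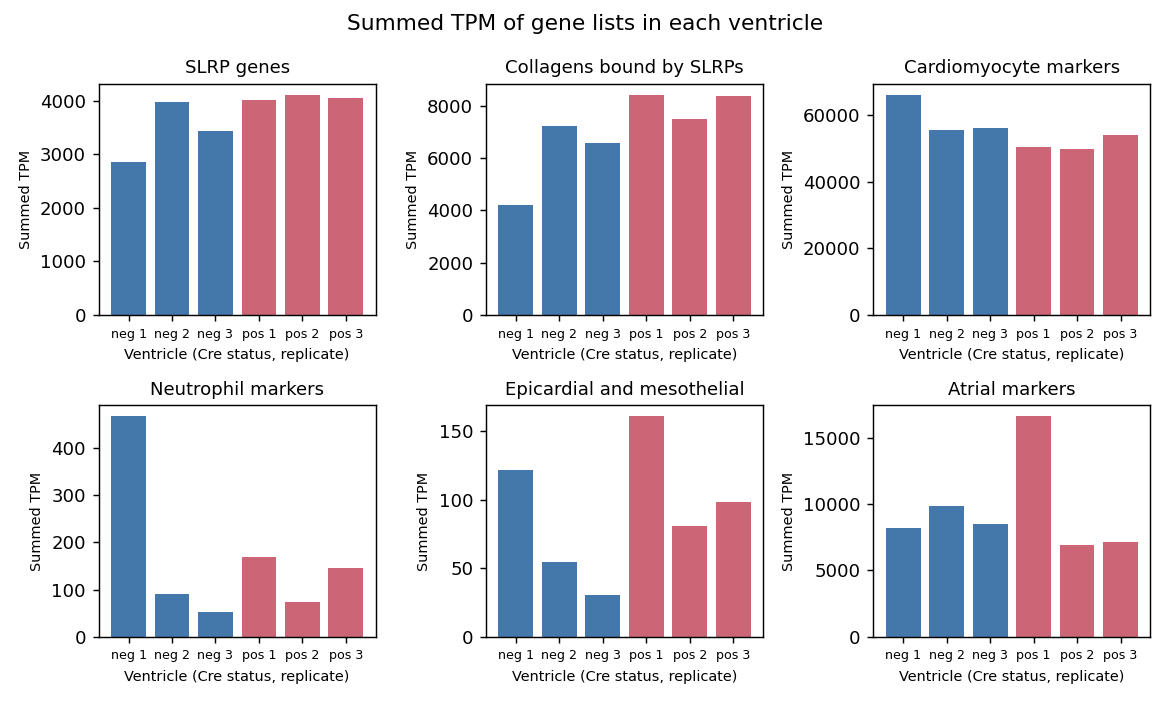
Summed TPM in each ventricle of the 9 SLRP genes, 11 collagen genes and 4 marker lists, with blue bars for Cre-negative and red bars for Cre-positive and axes that start at 0. Cre-negative replicate 1 has the lowest SLRP (2855 TPM) and collagen (4193 TPM) sums and the highest cardiomyocyte (66128 TPM) and neutrophil (468 TPM) sums, and Cre-positive replicate 1 has the highest atrial sum (16615 TPM).

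Of 9 other SLRP and related leucine rich repeat genes, 5 were tested and 0 passed by edgeR or DESeq2, with 1 (*Tsku*) at an unadjusted edgeR p under 0.05, against 5.83% of all genes tested. *Tsku*, encoding the secreted signalling modulator tsukushi, was at 21.2, 21.8 and 22.9 TPM in Cre-negative and 30.9, 28.1 and 28.4 TPM in Cre-positive ventricles. Its Cre-positive values all lay above its Cre-negative values, as in 7.55% of all genes tested, and its log2 fold change was 0.29 ± 0.10 (SE, edgeR adjusted p = 0.714, two-sided exact permutation p = 0.1). *Ecm2*, which lies 11.7 kb before *Aspn*, was at 10.9, 18.4 and 18.4 TPM in Cre-negative and 18.5, 18.3 and 20.95 TPM in Cre-positive ventricles, and was again lowest in Cre-negative replicate 1. *Kera*, 34.3 kb beyond *Lum* and characteristic of the cornea, was listed at 0.07 TPM in 1 ventricle and at 0 in 5. *Optc*, 0.6 kb from *Prelp*, was at 0.08 to 0.59 TPM. *Aspn*, *Omd*, *Ogn* and *Ecm2* all lie within the span of *Cenpp* on the opposite strand. *Cenpp* was at 2.35 to 5.47 TPM, beside 1.26 to 2.65 TPM for *Omd*, and whether the counting used strand is not given in the sources used here, so reads of *Omd* and *Cenpp* may not be fully separated.

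Next, genes that build, modify, cleave or bind SLRPs were counted, with large proteoglycans that share a chain type listed beside them. None of the 86 tested genes in these 9 lists passed (edgeR adjusted p of at least 0.714), and 0 passed by DESeq2. An unadjusted edgeR p under 0.05 was given to 10 of them, all with a log2 fold change above 0. Of all genes tested 5.83% had such a p, counted in either direction. Without Cre-negative replicate 1 the 10 values were 0.15 to 0.50, against 0.18 to 0.81 with it. The median over all genes tested was 0.0062, or 9.67e-05 without it. In chondroitin and dermatan sulfate synthesis, which makes the chains of decorin and biglycan, 0 of 24 tested genes passed in either direction, 19 had a log2 fold change above 0 and the median was 0.15, or 0.00011 without Cre-negative replicate 1. The most abundant were *Chpf* (92.9 ± 20.3 and 106 ± 3.47 TPM in Cre-negative and Cre-positive, SD, n = 3), *B3gat3* and *Chst12*. The log2 fold change of *Chpf* was 0.087, or -0.046 without Cre-negative replicate 1. In keratan sulfate synthesis, which serves lumican and fibromodulin, 0 of 7 passed and the median was 0.11, or 0.22 without Cre-negative replicate 1. *B4galt1* (120.1 ± 4.28 and 134 ± 0.564 TPM), *Fut8* and *B3gnt2* were its most abundant genes. The tyrosine sulfating enzymes *Tpst2* and *Tpst1* had log2 fold changes of -0.037 and 0.13 (-0.043 and 0.0028 without Cre-negative replicate 1), with a median of 0.045, or -0.020 without that ventricle.

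Processing and turnover genes did not pass either. Of 4 tested genes in the propeptide list 0 passed, with a median of 0.19 and 0.032 without Cre-negative replicate 1. This list includes *Pcolce* and *Pcolce2*, which are named as enhancers of procollagen cleavage and not of SLRP cleavage. *Bmp1*, the protease that trims the propeptide of biglycan, was at 115 ± 19.97 and 150 ± 8.77 TPM (log2 fold change 0.27 ± 0.12, SE, or 0.18 without Cre-negative replicate 1). *Pcolce* was at 366 ± 59.2 and 428 ± 16.6 TPM and *Pcolce2* at 28.7 ± 7.12 and 31.9 ± 5.80 TPM. Their log2 fold changes were 0.12 and 0.043, or 0.032 and -0.10 without Cre-negative replicate 1, so that *Pcolce2* changed sign. Of 9 proteases 0 passed, with a median of 0.034 and of 0.18 without Cre-negative replicate 1, and *Mmp2*, *Mmp14* and *Mmp12* were the most abundant. Among the 11 collagens to which SLRPs bind, 0 passed although all 11 had a log2 fold change above 0, with a median of 0.36 and of 0.14 without Cre-negative replicate 1. *Col1a1* was at 1549, 2707 and 2435 TPM in Cre-negative and 3260, 2759 and 3154 TPM in Cre-positive ventricles, and its log2 fold change was 0.36 ± 0.21 (SE). *Col3a1* (0.30 ± 0.20) and *Col1a2* (0.39 ± 0.20) had similar values, and without Cre-negative replicate 1 the values were 0.18 for *Col1a1*, 0.12 for *Col3a1* and 0.21 for *Col1a2*.

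Among binding partners, 0 of 11 tested growth factor genes passed (median 0.18, or 0.15 without Cre-negative replicate 1, 9 above 0). *Ctgf* was at 295, 495 and 512 TPM in Cre-negative and 608, 716 and 497 TPM in Cre-positive ventricles, with a log2 fold change of 0.38 ± 0.20 (SE). *Tgfb1*, the ligand that decorin and asporin bind, had 0.11 ± 0.14 and *Vegfa* had -0.10 ± 0.21. Without Cre-negative replicate 1 these values were 0.20 for *Ctgf*, -0.043 for *Tgfb1* and 0.17 for *Vegfa*, so that the last 2 changed sign. Of 15 receptor genes 0 passed (median 0.12, or 0.081 without it, 13 above 0), *Itgb1*, *Lrp1* and *Kdr* being the most abundant with log2 fold changes of 0.12, 0.065 and 0.039, or 0.095, 0.0025 and 0.18 without it. Beside these partners, of 3 tested large chondroitin sulfate proteoglycans 0 passed (median 0.35, or 0.23 without Cre-negative replicate 1). *Vcan* was at 27.6 ± 5.87 and 35.7 ± 2.23 TPM, *Cspg4* at 11.9 ± 2.13 and 16.2 ± 1.52 TPM and *Acan* at 0.580 ± 0.525 and 1.01 ± 0.211 TPM.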

How the data were processed

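RNA of whole left ventricles was sequenced in 6 mice. Per the labels, it was extracted with TRIzol and libraries were prepared by BGI Americas. The submitters' processing notes name Bowtie2 2.2.5, RSEM 1.2.12 and GRCm38.p6; the annotation is not given in the sources used here. The authors deposited estimated counts (11.46% not whole, 18.5% of SLRP values), TPM and FPKM values per gene. A deposited DESeq2 comparison (log2 fold changes, p-values and q-values) was not used.

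Counts were rounded and tested in R 4.3.3 with edgeR 4.0.16 (filterByExpr, minimum count 10 and minimum total 15; TMM; quasi-likelihood; Benjamini-Hochberg, threshold 0.05). Normalized counts are TMM-scaled at the mean library size of 14273417, and standard errors were derived from the F statistic. The fit was tested on simulated data. Exact permutation tests covered all 20 groupings. Likeness used log2 CPM with a prior count of 2. Alternatives used DESeq2 1.42.0 and limma 3.58.1, other filters, scalings, covariates and left-out ventricles. Figures used matplotlib 3.10.9.

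The SLRP genes and lists were chosen with earlier results of these data known. Named genes were the SLRP genes, the targeted genes, up to 3 genes of highest mean TPM per pathway list, any list gene that passed, and for each SLRP gene the 2 genes of highest r. *Tsku*, *Ecm2*, *Kera*, *Optc*, *Cenpp*, *Gbp2b* and the marker genes *Myl2*, *Myl3*, *Hand1*, *Myl4*, *Nppa*, *Csf3r*, *S100a8*, *S100a9* and *Ly6g* were named after their values were seen, and the mesothelial markers as a whole list.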

Additional observations from a re-analysis of the deposited data

How the results depend on the processing

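No SLRP gene passed under any of the 16 alternatives, and the median log2 fold change of the 9 genes stayed between 0.047 and 0.24. The number of all genes called was 1 with all ventricles, 5 by DESeq2, 3 by limma on log2(TPM + 1) with no filter, 0 with the replicate number as a block and 0 to 2 when single ventricles were left out (2, *Gbp2b* and *Postn*, without Cre-negative replicate 1, 0 without Cre-negative replicate 3 or Cre-positive replicates 1 or 3). The labels do not say that replicate numbers pair the ventricles. Same-numbered deviations correlated at 0.354, 0.0726 and -0.0318 and different-numbered ones at -0.368 to 0.354. With 3 ventricles per group these values cannot settle it. Y-linked counts did follow the number, at 16 and 12 in replicate 2 and 1592 to 2034 in the others. In the edgeR fit with the block 2 SLRP genes had an unadjusted p under 0.05, as did 8.81% of all genes. Small changes turned sign. *Podn* was 0.0038 with library size only. By limma on log2(TPM + 1), with or without a filter, and on log2(TPM + 0.1), *Dcn* was 0.041, *Prelp* 0.014 and 0.015 and *Podn* 0.015 and 0.014, where the median of all genes was 0.11 and 0.12 with the filter. Leaving out single ventricles gave -0.18 to 0.050 for *Dcn*, -0.053 to 0.28 for *Lum*, -0.23 to 0.0054 for *Prelp* and -0.40 to 0.25 for *Podn*, the sign turning without Cre-negative replicate 1 for each, and without Cre-positive replicate 2 for *Dcn* (0.050) and *Podn* (0.18). For *Bgn* leaving out single ventricles gave 0.071 to 0.35, for *Fmod* 0.27 to 0.96, for *Ogn* 0.085 to 0.28 and for *Aspn* 0.12 to 0.36. None of these turned sign. The causes of these shifts were not tested. Of the 18 genes most like an SLRP gene by Pearson's r, 10 were also at the highest Spearman's rho. *Omd* ranged from -0.43 to -0.0006 over 15 alternatives. Depth limits *Omd* most, which the filter at a mean of 50 counts removed.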
